A study of Mus musculus with 8 samples.

Results

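The lysosome, autophagy and TFE3/TFEB pathway was followed here through 37 genes, chosen by name as members of that pathway, out of 13959 genes tested in the series. All 37 had values in all 8 libraries and a mean value of at least 1, so none was lost to the filter on low values. They fall into 5 roles: 6 regulators around TFE3, TFEB and folliculin, 12 lysosomal hydrolases and an activator protein, 6 proteins of the lysosomal membrane and of lipid and ion transport, 6 genes of the vacuolar proton pump (V-ATPase), and 7 autophagy genes. TFE3 and TFEB are transcription factors that mTORC1 keeps in the cytoplasm by phosphorylation at the lysosome surface. The kinase GSK3 has also been reported to phosphorylate TFEB. When released, they enter the nucleus, bind CACGTG-type sequences (the CLEAR element) and raise genes of lysosomes and autophagy. In mouse embryonic stem cells TFE3 is known for sustaining self-renewal, and the folliculin complex for excluding it from the nucleus.

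RNA was measured in E14 mouse embryonic stem cells of the 129/Ola strain, with 2 libraries in each of 4 groups. In the GSK3β line the GSK3Beta gene was knocked out and a transgenic GSK3Beta-L132G was added. In the GSK3α line the GSK3alpha gene was knocked out and a transgenic GSK3alpha-L195G was added. Such an enlarged ATP pocket is meant to let the bulky inhibitor 3MB-PP1 block that kinase alone. The 4 groups were the GSK3β line with 5 µM 3MB-PP1 for 2 h, the GSK3β line untreated, the GSK3α line with 5 µM 3MB-PP1 for 2 h, and the GSK3α line untreated, all after 6 h in serum-free N2B27 medium. Each paralog is represented by 1 line, each line keeps the other paralog's own gene, no line lacks a mutant kinase, and no vehicle is named for the untreated cells. Nothing says that the 2 libraries of a group came from separate cultures, so the p-values measure only the spread between these libraries.

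The deposited values are scaled gene counts whose upper quartile is equal in all libraries, and not raw counts. Estimated depth was 31.2 and 32.4 M reads in the GSK3β line with 3MB-PP1, against 23.8 and 28.9 M reads untreated, and 26 and 26.4 M reads in the GSK3α line with 3MB-PP1, against 21.5 and 22.7 M reads untreated. Depth thus moved with the inhibitor in both lines. With all libraries thinned to equal depth the count of members called in the GSK3β line was again 17. Tfeb was gained (log2 0.26, against 0.17 without thinning, limma adjusted p = 0.00774) and Atp6v1b2 was lost (0.0893). The thinning was a random draw that was not repeated, so the spread between draws is not known. All 8 embryonic stem cell markers had values, and their sum was 6176 to 6368 in every library. Of the 10 primitive endoderm markers Foxa2 had no value and their sum was 17.3 to 20.6, of the 8 trophoblast markers Elf5 had none and their sum was 24.9 to 33.5, and of the 8 fibroblast markers Col3a1, Postn, Dcn, Lum and Twist2 had none and their sum was 9.34 to 14.01. Gsk3b had 235 to 258 in the GSK3β line and 52.7 to 58.2 in the GSK3α line, while Gsk3a had 76.2 to 79.9 in the GSK3β line and 141 to 160.0 in the GSK3α line. Within the GSK3α line Gsk3a was lower with 3MB-PP1, at 141 and 142 against 155 and 160.0 untreated (log2 -0.16, limma adjusted p = 0.0345). A transgene and the knocked-out gene share a symbol, so these values do not separate them. Axin2, a standard target of β-catenin, had 38.4 and 41.3 in the GSK3β line with 3MB-PP1, against 13.99 and 15.1 untreated, and 14.5 and 13.9 in the GSK3α line with 3MB-PP1, against 13.9 and 13.7 untreated.

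The CACGTG letters to which TFE factors bind were searched for in the RefSeq promoter of each member on build GRCm38.p6, from 250 bases before to 50 bases after the gene's start, and 32 of the 37 members were in that table. CACGTG is its own reverse complement, so a match counts for both strands. It was present in 11 of 32 members, or 34.4% (exact binomial 95% interval 18.6 to 53.2%), against 2187 of all 27025 genes with a promoter, or 8.09%. The longer TCACGTGA, which contains CACGTG, was present in 6 of 32 members, or 18.8% (7.21 to 36.4%), against 304 genes, or 1.12%. The same letters with a G before and a C after them, the full CLEAR palindrome, were present in 0 of 32 members, which allows a share of up to 10.9%, against 100 genes, or 0.37%. The members come from a pathway that was described partly through this motif, so these shares describe the list and are not independent of it. All members passed the filter on low values, while the 27025 genes include genes that were not tested here. The shares over tested genes alone were not counted.

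Some of these stretches are shown as examples of the match in genes with and without a call in the GSK3β line. Capitals mark CACGTG, or TCACGTGA where the longer form is present. Lamp1 and Gaa passed the test in the GSK3β line, while Glb1, Fnip1 and Atp6v1a did not, and a difference between these genes was not tested. The regions are chr8:13159080-13159160 on the plus strand for Lamp1, chr11:119267803-119267848 on the plus strand for Gaa, chr9:114401010-114401055 on the plus strand for Glb1, chr11:54438084-54438129 on the plus strand for Fnip1 and chr16:44139365-44139410 on the minus strand for Atp6v1a. None of these bases lies in an annotated exon, and each stretch is upstream of the RefSeq start that defines its promoter. The Atp6v1a stretch lies inside the longer gene of the GENCODE annotation, which spans chr16:44085402-44139705.
Lamp1: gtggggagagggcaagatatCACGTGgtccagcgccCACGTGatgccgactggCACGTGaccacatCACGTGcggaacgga
Gaa: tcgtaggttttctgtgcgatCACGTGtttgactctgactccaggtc
Glb1: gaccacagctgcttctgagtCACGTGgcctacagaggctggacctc
Fnip1: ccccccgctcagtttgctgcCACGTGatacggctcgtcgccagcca
Atp6v1a: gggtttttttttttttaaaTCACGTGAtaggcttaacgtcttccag
Lamp1 held 4 matches within 81 bases, and the other stretches held 1 each. CACGTG was also present in the promoters of Atp6v0d1, Ctsa, Ctsd, Ctsl, Gla and Mcoln1.

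The first comparison asks what 3MB-PP1 changed in the GSK3β line. With the inhibitor 7 of 12 hydrolase and activator genes, 4 of 6 membrane genes and 2 of 6 regulators rose, by 6.53 to 26.9% of the untreated mean, and the autophagy kinase gene Ulk1 rose by 30.1%. Of the 37 members, 15 rose and 2 fell at an adjusted p of 0.05 in limma, and 20 did not pass. Over all tested genes 14.9% passed, 7.49% higher and 7.44% lower, while 40.5% of the members were higher and 5.41% lower. In 23 members both treated libraries were above both untreated ones and in 8 both were below, beside 57.3% of all tested genes without overlap, 27.3% above and 30% below. The median log2 change was 0.09 over the members and -0.01 over all tested genes. The list was drawn up with results of these libraries known, so these shares describe it and are not independent evidence of its direction.

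Among the regulators Tfe3 and Rragd rose and the other 4 did not pass. Tfe3, which encodes the transcription factor itself, had 113 and 113 in the GSK3β line with 3MB-PP1, against 99.5 and 99.7 untreated. Both treated libraries lay above both untreated libraries, with a log2 change of 0.18 (SE 0.03, limma adjusted p = 0.00111). Rragd, which encodes the RagD GTPase that helps to bring mTORC1 to the lysosome and is a known target of the TFE factors, had 45.5 and 45.8 in the GSK3β line with 3MB-PP1, against 37.6 and 34.4 untreated. The groups did not overlap, and the log2 change was 0.34 (SE 0.05, limma adjusted p = 0.000170).

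Tfeb, the paralog of Tfe3, had 23.6 and 24.0 in the GSK3β line with 3MB-PP1, against 21.0 and 21.0 untreated. The libraries were apart, but the log2 change of 0.17 had a limma adjusted p of 0.0503, which is just outside the threshold. Fnip1, a partner of folliculin, had 39.8 and 41.5 in the GSK3β line with 3MB-PP1, against 35.8 and 38.5 untreated (log2 0.13, limma adjusted p = 0.161). Flcn, which encodes folliculin, the GTPase-activating protein of RagC and RagD, had a log2 change of 0.06, and Fnip2, the other partner, -0.07, and neither passed. The median of the 6 regulators was 0.15.

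**Figure D1:**
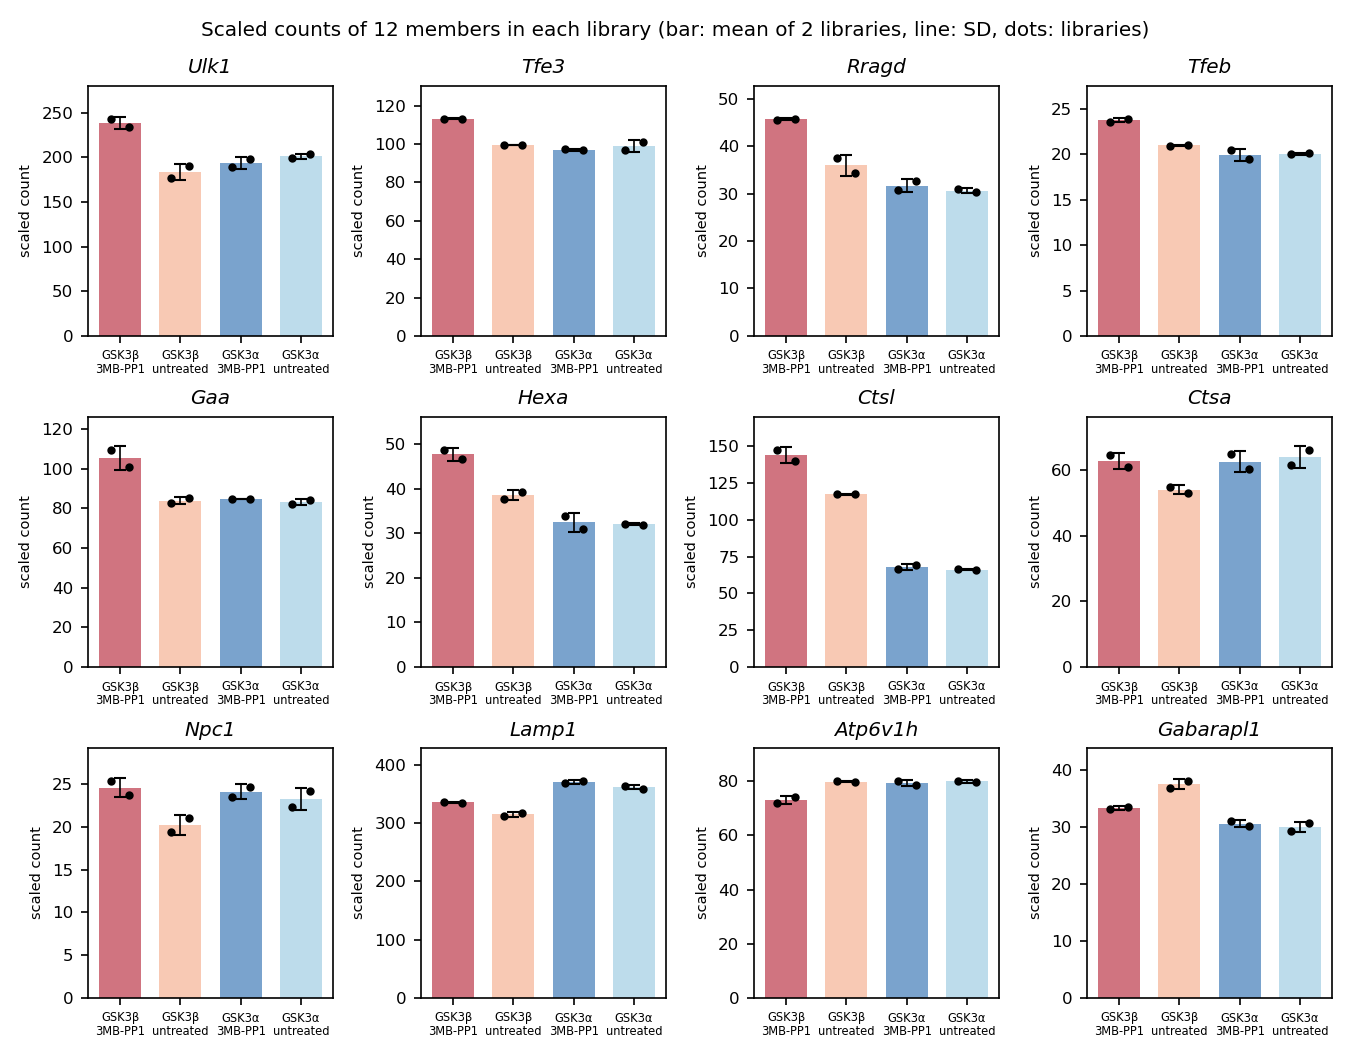
Value of selected members in each of the 8 libraries (y axis, deposited scaled count), with the 4 groups on the x axis and each point 1 library; the bar is the mean of the 2 libraries and the line its SD. Ulk1 sits at 243 and 234 in the GSK3β line with 3MB-PP1, above 177 and 189.9 untreated, while the GSK3α line has 189 and 198 with 3MB-PP1 and 199 and 203 untreated.

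Of the 12 hydrolase and activator genes, 7 rose, 0 fell and 5 did not pass, with a median log2 change of 0.17. Gaa, acid alpha-glucosidase, which breaks down glycogen in lysosomes, had 109.6 and 101 in the GSK3β line with 3MB-PP1, against 82.5 and 85.0 untreated. It was 25.7% higher, with no overlap (log2 0.33, SE 0.04, limma adjusted p = 1.38e-05). Hexa, the alpha subunit of beta-hexosaminidase, had 48.8 and 46.6 in the GSK3β line with 3MB-PP1, against 37.7 and 39.3 untreated. It was 23.8% higher, again with no overlap (log2 0.30, SE 0.05, limma adjusted p = 0.000459).

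Ctsl, the cysteine protease cathepsin L, had 148 and 140.2 in the GSK3β line with 3MB-PP1, against 117 and 118 untreated. It was 22.5% higher and the groups did not overlap (log2 0.29, SE 0.04, limma adjusted p = 2.26e-05). The other 4 hydrolase and activator genes that rose were smaller steps. Ctsa, which encodes the protective protein cathepsin A, had 64.6 and 61.0 in the GSK3β line with 3MB-PP1, against 54.9 and 53.0 untreated (log2 0.21, limma adjusted p = 0.00431). Ctsz, cathepsin Z, had 33.1 and 32.5 in the GSK3β line with 3MB-PP1, against 27.4 and 28.9 untreated (log2 0.21, limma adjusted p = 0.00807). In both genes every treated library was above every untreated one.

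Ctsb, cathepsin B, had 89.1 and 91.1 in the GSK3β line with 3MB-PP1, against 78.3 and 80.1 untreated (log2 0.18, limma adjusted p = 0.00343). Psap, the precursor of the saposins that help enzymes to degrade sphingolipids, had 345 and 344 in the GSK3β line with 3MB-PP1, against 304 and 315 untreated (log2 0.15, limma adjusted p = 0.00116). Neither gene's groups overlapped. The 5 that did not pass were Ctsc, Ctsd, Gla, Glb1 and Neu1, which encode cathepsins C and D, alpha-galactosidase A, beta-galactosidase and a sialidase, with log2 changes of -0.10 to 0.07. Gla, at 19.3 and 20.5 with 3MB-PP1 against 22.2 and 20.6 untreated, was the only one of the 12 with both treated libraries below both untreated ones.

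Added up, the 12 genes had a summed value of 1167 and 1139 in the GSK3β line with 3MB-PP1, against 1020 and 1033 untreated. In the GSK3α line the sum was 1043 and 1035 with 3MB-PP1, against 1004 and 1021 untreated. The untreated libraries were thus lower in the sum in both lines, and in such a sum genes with high values weigh most.

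Among the 6 membrane and transport genes 4 rose, 0 fell and 2 did not pass, with a median log2 change of 0.13. None of these 4 calls held without a mean-variance trend in limma. Npc1, which exports cholesterol from lysosomes, had 25.4 and 23.8 in the GSK3β line with 3MB-PP1, against 19.4 and 21.0 untreated (log2 0.27, limma adjusted p = 0.00605). Npc2, the soluble protein that hands cholesterol to NPC1, had 109 and 105 in the GSK3β line with 3MB-PP1, against 93.7 and 96.3 untreated (log2 0.17, limma adjusted p = 0.00492). The groups did not overlap in either.

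Lamp2, a major lysosomal membrane glycoprotein, had 51.9 and 50.7 in the GSK3β line with 3MB-PP1, against 42.0 and 47.4 untreated (log2 0.20, limma adjusted p = 0.0153). Lamp1, its close relative, had 336 and 335 in the GSK3β line with 3MB-PP1, against 312 and 318 untreated (log2 0.09, limma adjusted p = 0.0347). The untreated Lamp2 libraries were wide apart, and Lamp1 moved by 6.53%, the smallest change among the 15 that rose. Cd63, a tetraspanin of late endosomes, and Mcoln1, the lysosomal calcium channel and a known TFEB target, did not pass, with log2 changes of 0.10 and 0.04.

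The V-ATPase genes, whose products acidify the lysosome, did not share a direction: 1 rose, 1 fell and 4 did not pass, with a median log2 change of 0.01. Atp6v1b2, a catalytic-sector B subunit, had 178 and 182 in the GSK3β line with 3MB-PP1, against 169.8 and 167 untreated (log2 0.09, limma adjusted p = 0.0462). Atp6v1h, the regulatory H subunit, had 72.1 and 74.1 in the GSK3β line with 3MB-PP1, against 80.02 and 79.7 untreated (log2 -0.13, limma adjusted p = 0.0225). The groups were apart in both, in opposite directions. Atp6v0a1, Atp6v0d1, Atp6v1a and the accessory gene Atp6ap1 had log2 changes of -0.07 to 0.12.

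Among the 7 autophagy genes Ulk1 rose, Gabarapl1 fell and 5 did not pass, with a median log2 change of -0.00. Ulk1 encodes the kinase that starts autophagosome formation, and it had 243 and 234 in the GSK3β line with 3MB-PP1, against 177 and 189.9 untreated. Its log2 change of 0.38 (SE 0.04, limma adjusted p = 8.60e-07) was the largest of the 37, with no overlap. Gabarapl1, a relative of LC3 on autophagosome membranes, had 33.2 and 33.6 in the GSK3β line with 3MB-PP1, against 36.9 and 38.2 untreated. Its log2 change was -0.16 (limma adjusted p = 0.0296), and it did not pass without a mean-variance trend. With 1 GSK3β library left out the change ran from -0.14 to -0.19. Sqstm1, the cargo receptor p62, had 204 and 208 with 3MB-PP1 against 222 and 215 untreated (log2 -0.08, limma adjusted p = 0.106). Map1lc3a, Map1lc3b, Wipi1 and Uvrag, which encode LC3 proteins, a phosphoinositide-binding protein and a partner of the PI3-kinase complex, had log2 changes of -0.04 to 0.07.

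**Figure D2:**
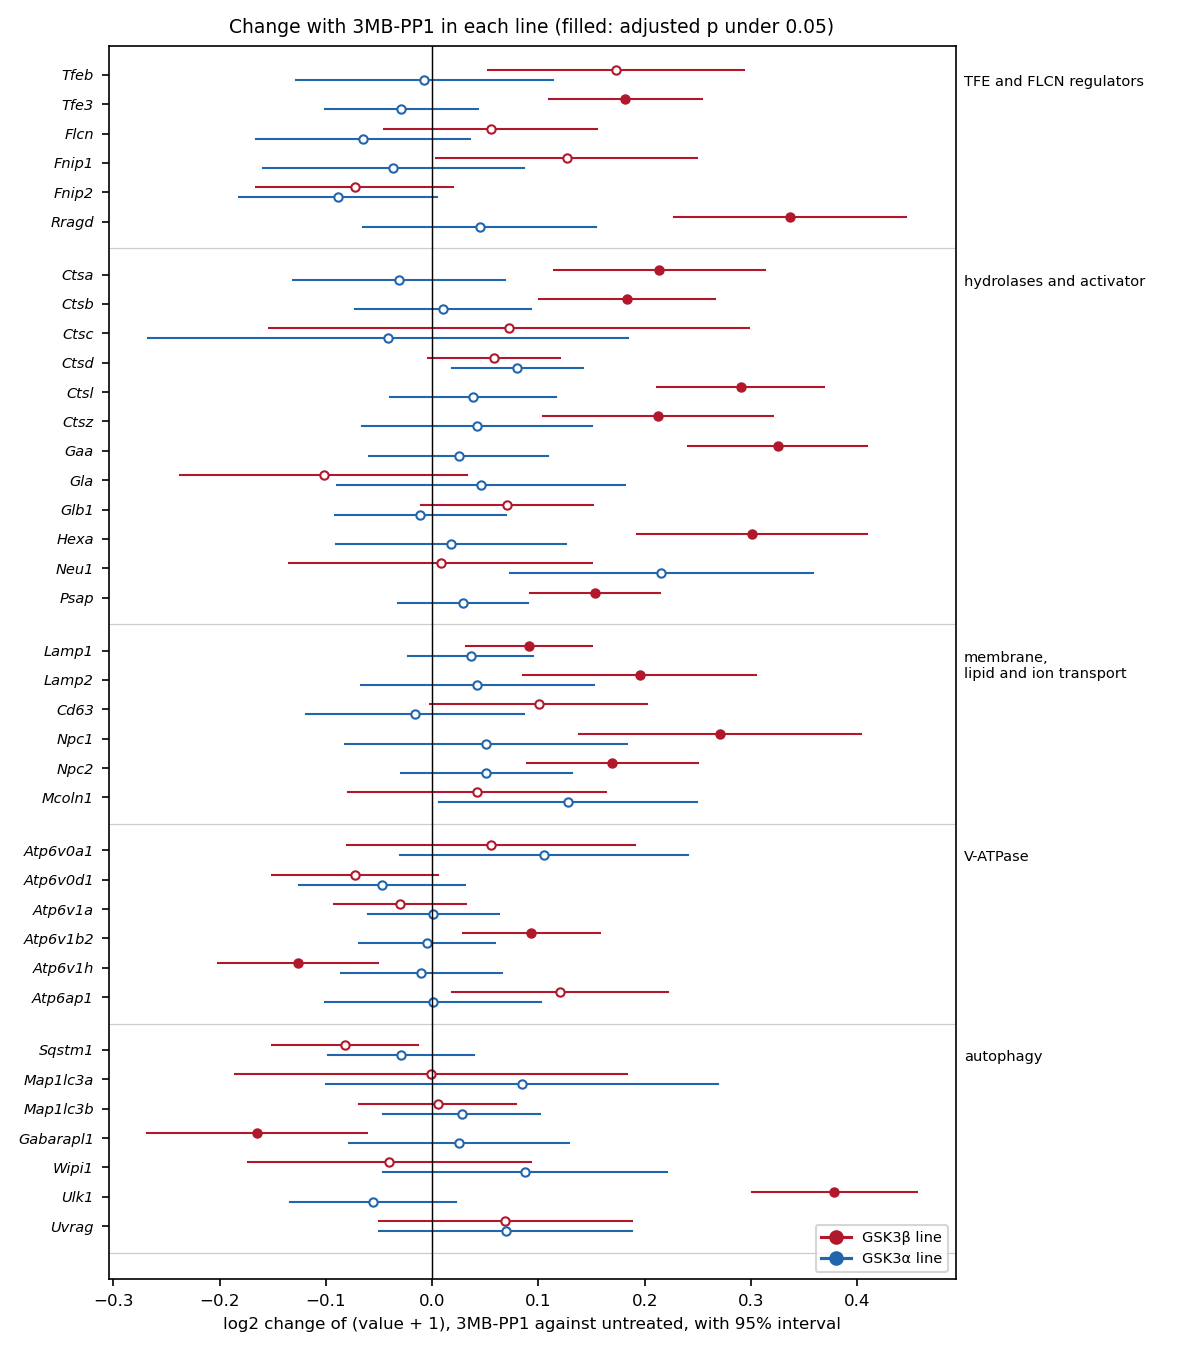
Log2 change with 3MB-PP1 of each of the 37 members (x axis; log2 of value + 1) with 95% intervals, grouped by role, in the GSK3β line (red) and in the GSK3α line (blue), with filled points past the threshold. In the GSK3β line the changes run from -0.16 (Gabarapl1) to 0.38 (Ulk1), while in the GSK3α line they run from -0.09 to 0.22.

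The 6 calls of Tfe3, Rragd, Ctsl, Gaa, Hexa and Ulk1 held under each of the 19 alternatives tried. The other 11 were lost under at least 1: Ctsa, Ctsb, Ctsz, Psap, Lamp1, Lamp2, Npc1, Npc2, Atp6v1b2, Atp6v1h and Gabarapl1. Without a mean-variance trend in limma the 6 that held were the ones left, with no membrane gene and no gene that fell among them. Without the GSK3β 3MB-PP1 replicate 1 there were 8 calls, without the untreated GSK3β replicate 1 there were 10, and without that last library Lamp2 had a log2 change of 0.11 (limma adjusted p = 0.240). Reads of genes on the opposite strand may be mixed in, since the strand setting is not known. Annotated exons of such a gene cover 28.3% of the exonic bases of Gabarapl1, 26.8% of Ctsl and 12.8% of Ctsb and of Hexa. They cover 10.5% of Ctsa, where a further gene on the opposite strand covers 6.87%, and 9.31% of Lamp1. On the same strand, where a strand setting would not separate the reads, exons of another gene cover 6.09% of Ctsl. Beside these calls, the marker sums of other cell types were 18.1 and 18.5 with 3MB-PP1 against 17.3 and 17.4 untreated for primitive endoderm, 30.3 and 33.5 against 30.5 and 29.4 for trophoblast, and 13.3 and 13.9 against 12.9 and 14.01 for fibroblasts, and their part in the calls was not tested. Single markers moved within these sums. Among the 6 trophoblast markers tested Plet1 fell, with 6.60 and 6.06 with 3MB-PP1 against 10.2 and 8.04 untreated (log2 -0.46, limma adjusted p = 0.00807). Cdx2, which was under the mean value needed for a test, had 2.43 and 3.27 with 3MB-PP1 against 0.195 and 0.321 untreated. None of the 5 primitive endoderm and 2 fibroblast markers tested passed. Of the 8 embryonic stem cell markers Nanog (log2 0.14) and Esrrb (0.22) rose and Tdgf1 (-0.24) and Utf1 (-0.20) fell, and their part in the calls was not tested either. In bulk RNA fewer cells of a type and less RNA per cell cannot be told apart.

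The second comparison asks the same of the GSK3α line. None of the 37 members passed in limma there, beside 0.881% of all tested genes called, 0.265% higher and 0.616% lower. Axin2 did not pass there either (log2 0.04, limma adjusted p = 0.869). Whether 3MB-PP1 acted as strongly in this line as in the GSK3β line was not tested. Both treated libraries were above both untreated ones in 10 members and below in 3, beside 42% of all tested genes without overlap, 23% above and 19% below. At an unadjusted p under 0.05 3 members were higher and 0 lower, a count without a background, since all tested genes were not counted at that p. Limma-voom on estimated reads also called 0 members. The log2 changes ran from -0.09 to 0.22, with a median of 0.02 over the members and 0.01 over all tested genes.
Ulk1 had 189 and 198 in the GSK3α line with 3MB-PP1, against 199 and 203 untreated, a log2 change of -0.06 with a 95% interval of -0.13 to 0.02. Gaa had 84.8 and 84.5 in the GSK3α line with 3MB-PP1, against 82.0 and 84.3 untreated, a log2 change of 0.02 (-0.06 to 0.11). The intervals of both genes lie below the log2 changes of 0.38 and 0.33 that these genes had in the GSK3β line. Tfe3 (97.4 and 96.8 with 3MB-PP1, against 96.97 and 101 untreated) had a log2 change of -0.03 (-0.10 to 0.04), and Rragd (30.7 and 32.6 with 3MB-PP1, against 31.0 and 30.2 untreated) 0.04 (-0.06 to 0.15).

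The members with the lowest unadjusted p-values in the GSK3α line were other genes. Neu1, the sialidase that forms a complex with cathepsin A, had 15.96 and 15.9 in the GSK3α line with 3MB-PP1, against 13.4 and 13.7 untreated, which was 17.3% higher (log2 0.22, limma adjusted p = 0.178). Mcoln1 had 23.3 and 22.9 in the GSK3α line with 3MB-PP1, against 20.7 and 21.4 untreated (log2 0.13, limma adjusted p = 0.390). Ctsd had 241 and 241 in the GSK3α line with 3MB-PP1, against 227 and 229 untreated (log2 0.08, limma adjusted p = 0.267). The libraries were apart in all 3, and none passed. By role the median log2 changes were -0.03 for the regulators, 0.03 for the hydrolases, 0.05 for the membrane genes, -0.00 for the V-ATPase and 0.03 for autophagy.

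**Figure D3:**
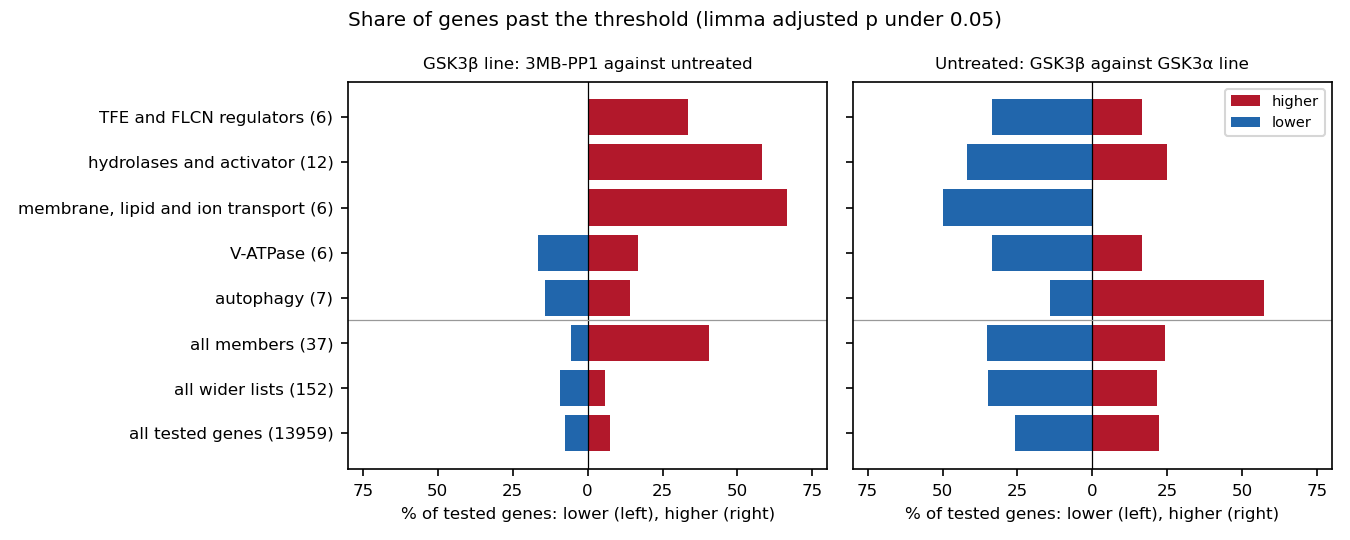
Share of genes past the limma threshold (x axis, % of the tested genes of each row, lower to the left and higher to the right) by role, over all members, over the wider lists and over all tested genes, with 3MB-PP1 against untreated in the GSK3β line (left panel) and for the untreated GSK3β line against the untreated GSK3α line (right panel). In the left panel 7 of 12 hydrolase and activator genes and 4 of 6 membrane genes are higher, and in the right panel 4 of 7 autophagy genes are higher and 3 of 6 membrane genes lower.

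Whether the response itself differed between the lines was tested as an interaction. It was larger in the GSK3β line for 7 members and smaller for 0, and 30 did not pass, while 6.53% of all tested genes passed, 3.62% larger and 2.9% smaller. With each treated library set against the mean of its own line's untreated libraries, the GSK3β changes lay above the GSK3α changes without overlap in 22 members and below in 9, beside 65% of all tested genes, 29.2% above and 35.7% below. The 7 were the regulators Tfe3 and Rragd, the hydrolases Gaa, Hexa, Ctsl and Ctsa, and Ulk1, with no membrane or V-ATPase gene among them. The median difference was 0.11 over the members and -0.01 over all tested genes.

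Ulk1 had the largest difference of log2 changes, 0.43 (95% interval 0.32 to 0.54, limma adjusted p = 3.29e-05), with 0.38 in the GSK3β line and -0.06 in the GSK3α line. Gaa differed by 0.30 (0.18 to 0.42, adjusted p = 0.00301), Rragd by 0.29 (0.14 to 0.45, adjusted p = 0.0220), Hexa by 0.28 (0.13 to 0.44, adjusted p = 0.0244) and Ctsl by 0.25 (0.14 to 0.36, adjusted p = 0.00682). Ctsa differed by 0.24 (0.10 to 0.39, adjusted p = 0.0343) and Tfe3 by 0.21 (0.11 to 0.31, adjusted p = 0.0127). In each of them the change in the GSK3α line was between -0.06 and 0.04.

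For the other genes that rose in the GSK3β line a difference between the lines did not pass. Psap differed by 0.12 (adjusted p = 0.0806), Ctsb by 0.17 (adjusted p = 0.0731), Npc1 by 0.22 (adjusted p = 0.157) and Lamp1 by 0.05 (adjusted p = 0.470), and the intervals of Npc1, from 0.03 to 0.41, and of Lamp1, from -0.03 to 0.14, show how wide these differences are. Neu1 was the member with the lowest estimate, -0.21 (-0.41 to -0.01, adjusted p = 0.223). None of the 7 calls held under all 18 alternatives: without the mean-variance trend 0 of them passed, without the GSK3β 3MB-PP1 replicate 1 only Gaa and Ulk1 did, and without the GSK3α 3MB-PP1 replicate 2 4 did. Ulk1 and Gaa were lost only without the trend, at limma adjusted p-values of 0.0611 and 0.110.

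Averaged over both lines, 0 members passed in limma, beside 1.73% of all tested genes, 0.659% higher and 1.07% lower. Within each line, both treated libraries lay above both untreated ones in 6 members and below them in 2, beside 14.3% of all tested genes, 7.22% above and 7.04% below. At an unadjusted p under 0.05, 13 members were higher and 2 lower. The share of all tested genes at that unadjusted p was not counted, so these counts have no background beside them. The smallest adjusted p was that of Ctsl, 0.0900 (log2 0.16), and limma-voom on estimated reads called 1 member, Ctsl (adjusted p = 0.0441). Without the untreated GSK3α replicate 2 there was 1 call, Npc2 (adjusted p = 0.0497).

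Set beside the promoter letters, the 11 members with CACGTG comprised 4 that rose in the GSK3β line (Ctsa, Ctsl, Gaa and Lamp1) and 7 that did not pass. The 21 members in the promoter table without CACGTG comprised 8 that rose, 1 that fell and 12 that did not pass. The 5 members outside that table were Ctsb, Npc1 and Atp6v1b2, which rose, Atp6v1h, which fell, and Map1lc3a, which did not pass. Of the 6 members with TCACGTGA 1 rose, Ctsa, and 5 did not pass (Atp6v1a, Ctsd, Gla, Mcoln1 and Atp6v0d1). Rragd, Tfe3, Hexa and Ulk1 had no CACGTG in the window searched, which says only that these letters are not in those 300 bases.

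The untreated lines were also compared with each other, which asks how the pathway's levels differ before any inhibitor. Of the 37 members, 9 were higher and 13 lower in the untreated GSK3β line than in the untreated GSK3α line, and 15 did not pass. With every library scaled to an equal total the split was 11 higher and 7 lower. Over all tested genes 48.2% passed, 22.3% higher and 25.9% lower, so differences between these lines were common. The libraries did not overlap in 11 members that were above and 17 that were below, beside 72.2% of all tested genes, 33.5% above and 38.7% below. The median log2 difference was -0.03 over the members and -0.02 over all tested genes.

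Ctsl showed the largest difference, with 117 and 118 in the untreated GSK3β line against 66.3 and 66.1 in the untreated GSK3α line. It was 77.5% higher (log2 0.82, SE 0.04, limma adjusted p = 2.91e-12), well beyond the spread. Map1lc3a, an LC3 protein, had 17.6 and 17.7 in the untreated GSK3β line against 12.2 and 9.91 in the untreated GSK3α line (log2 0.64, limma adjusted p = 9.08e-06). Autophagy was the role with most genes higher, 4 of 7, with a median of 0.16. Beside Map1lc3a these were Wipi1 (log2 0.33), Gabarapl1 (0.31) and Map1lc3b (0.16), while Ulk1 was lower (-0.13, limma adjusted p = 0.00604). This was not shared by the 45 further autophagy genes of the wider lists, of which 7 were higher and 16 lower, with a median of -0.07.

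Other members higher in the untreated GSK3β line were Atp6v0d1, the d subunit of the proton pump's membrane sector (103 and 102, against 82.2 and 84.8, log2 0.30), Gla (log2 0.28), Hexa (log2 0.26) and Rragd (log2 0.22). Among those lower, Atp6v1a, the catalytic A subunit, had 185 and 188 in the untreated GSK3β line against 228 and 225 in the untreated GSK3α line (log2 -0.28, limma adjusted p = 3.15e-07). Flcn had 40.9 and 40.2 in the untreated GSK3β line against 46.4 and 51.1 in the untreated GSK3α line (log2 -0.26, limma adjusted p = 0.000225). The libraries of the lines did not overlap in any of these genes.

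Lamp1 had 312 and 318 in the untreated GSK3β line against 364 and 359 in the untreated GSK3α line (log2 -0.20, limma adjusted p = 1.19e-05). Glb1 and Ctsa (both log2 -0.24), Ctsz (-0.23), Atp6ap1 (-0.21), Npc1 (-0.19), Fnip1 (-0.18), Lamp2 (-0.16), Ctsc (-0.29) and Ctsd (-0.09) were lower as well. Annotated exons of another gene on the same strand cover 34.4% of the exonic bases of Ctsd and 5.49% of those of Glb1. Reads of both members may thus be mixed with those of the other gene. By role, 3 of 6 membrane genes and 5 of 12 hydrolases were lower, and 0 and 3 were higher. The membrane genes had a median of -0.14. Fnip1, Ctsc, Ctsd, Lamp2, Npc1 and Ulk1 each lost the call under at least 1 of 19 alternatives, and equal totals alone took away all 6. Leaving out an untreated GSK3β library moved Lamp2 to -0.07 (replicate 1, limma adjusted p = 0.304) or -0.24 (replicate 2, 0.00106), Ulk1 to -0.08 (replicate 1, 0.0979) and Ctsc to -0.17 (replicate 2, 0.285).

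Marker sums differed between these untreated lines too: 12.9 and 14.01 in the GSK3β line against 9.34 and 9.74 in the GSK3α line for fibroblasts, 30.5 and 29.4 against 26.4 and 26.1 for trophoblast, and 17.3 and 17.4 against 19.6 and 18.8 for primitive endoderm. Of the markers tested, 3 embryonic stem cell markers were higher and 3 lower in the untreated GSK3β line, 2 trophoblast markers were higher and 1 lower, 1 fibroblast marker was higher, and 2 primitive endoderm markers were lower. Their part in the differences of the members was not tested, and paralog and line cannot be told apart with 1 line for each paralog.

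**Figure D4:**
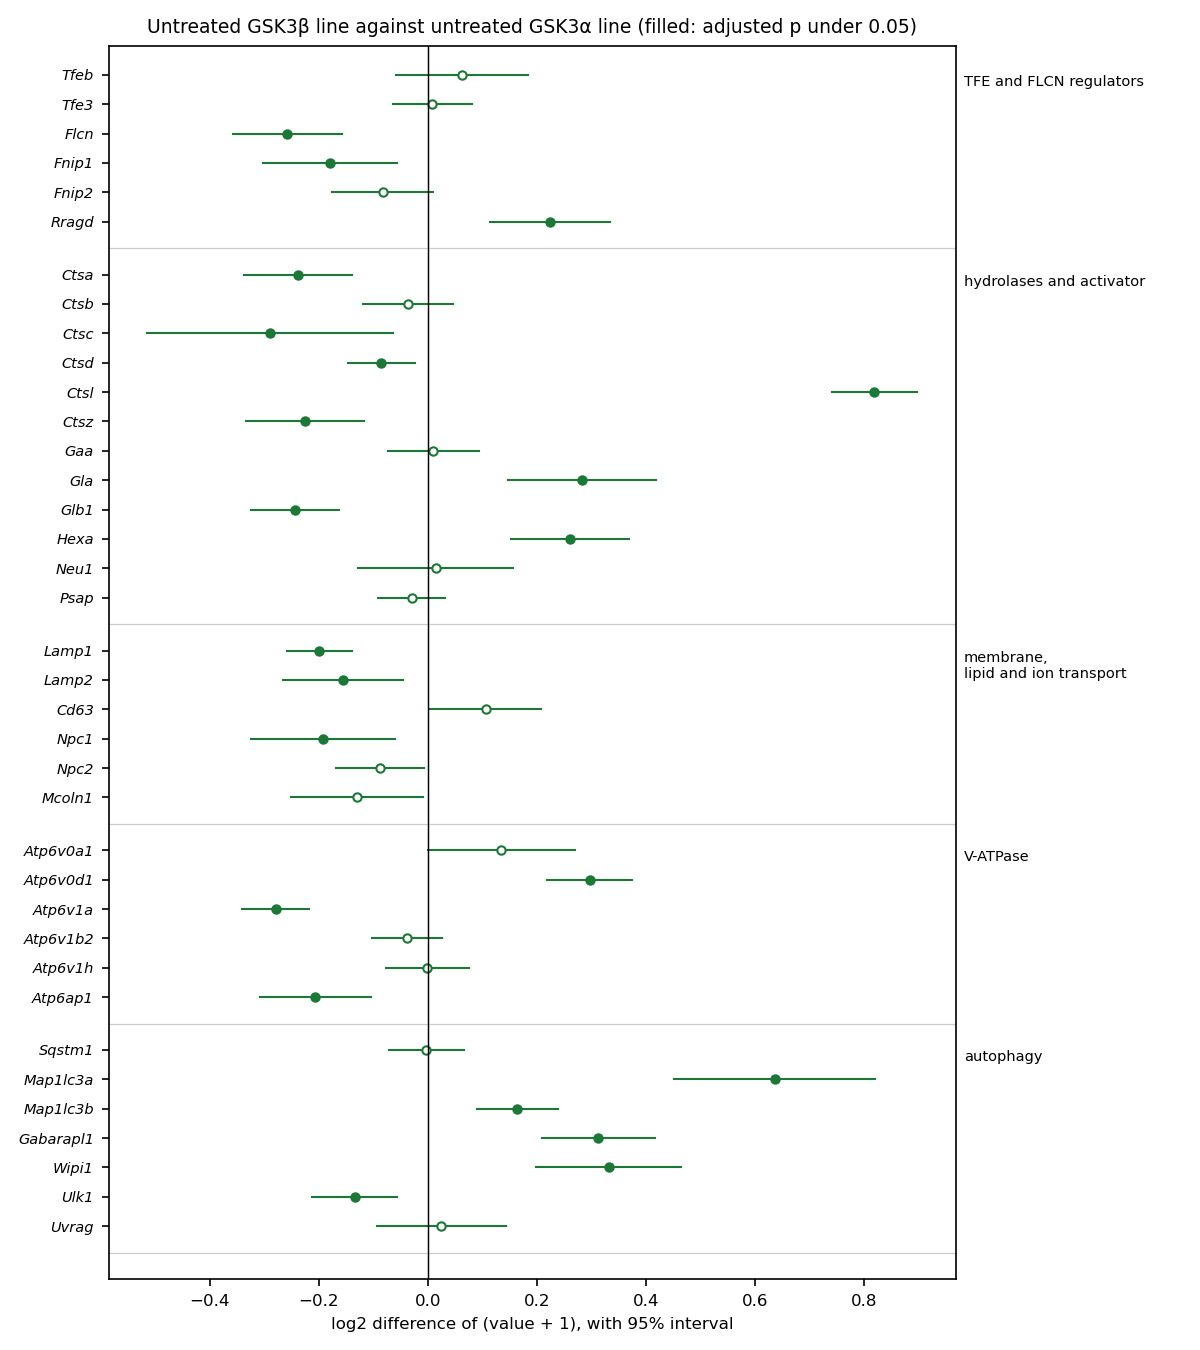
Log2 difference of each member between the untreated GSK3β line and the untreated GSK3α line (x axis; log2 of value + 1, GSK3β minus GSK3α) with 95% intervals, grouped by role, with filled points past the threshold. Ctsl at 0.82 and Map1lc3a at 0.64 stand to the right, and the other 35 members lie between -0.29 and 0.33.

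The comparison of the untreated lines and the response in the GSK3β line share the untreated GSK3β libraries, so their values are given side by side only. Of the 13 members lower in the untreated GSK3β line, 6 rose there with 3MB-PP1 (Ctsa, Ctsz, Lamp1, Lamp2, Npc1 and Ulk1). Of the 9 that were higher, 3 rose with 3MB-PP1 (Ctsl, Hexa and Rragd) and 1 fell (Gabarapl1). Of the 15 that did not differ past the threshold, 6 rose and 1 fell.

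The rest of the pathway was read from lists of 162 further genes, of which 152 were tested. In the GSK3β line 9 of them rose with 3MB-PP1 (5.92%) and 14 fell (9.21%), beside 7.49% and 7.44% of all tested genes, so the wider lists were near the background. Their median log2 change was 0.02. Without the GSK3β 3MB-PP1 replicate 1 the count was 2 higher and 4 lower, without replicate 2 it was 4 and 10, and without the untreated GSK3β replicate 1 it was 4 and 6. In the GSK3α line 0 of the 152 passed in limma, beside 0.881% of all tested genes.

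Of the 32 wider genes of the MiT/TFE family and of mTORC1 at the lysosome, 1 rose and 3 fell in the GSK3β line. The riser was Mitf, the related transcription factor, with 18.5 and 16.7 in the GSK3β line with 3MB-PP1, against 13.02 and 14.5 untreated (log2 0.33, limma adjusted p = 0.0122). Rheb, the GTPase that switches mTORC1 on, had 75.7 and 76.9 with 3MB-PP1, against 87.9 and 83.9 untreated (log2 -0.17), Mios, of the GATOR2 complex upstream of mTORC1, fell by 0.18 on the log2 scale, and so did Ddit4, an inhibitor of mTORC1. The libraries did not overlap in any of the 4.

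Of the 35 wider hydrolases 5 rose, among them Hyal2, Asah1 and Lgmn, and 3 fell (Ctsf, Man2b1 and Manba). Hyal2, a hyaluronidase, had 35.4 and 34.8 in the GSK3β line with 3MB-PP1, against 30.1 and 30.4 untreated (log2 0.21). Ctsf, cathepsin F, went the other way, with 17.3 and 17.7 with 3MB-PP1, against 22.3 and 22.1 untreated (log2 -0.33, limma adjusted p = 0.00352). Of the 25 membrane and sorting genes 2 rose, Slc36a1, a lysosomal amino acid transporter (log2 0.27), and Gnptab, which makes the mannose-6-phosphate sorting tag (log2 0.19). The 4 that fell included Cd68, a lysosomal glycoprotein, with 15.97 and 15.97 with 3MB-PP1, against 20.2 and 20.03 untreated (log2 -0.32), and Sort1, the sorting receptor sortilin (log2 -0.19). None of the 15 further V-ATPase genes passed.

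Of the 45 wider autophagy genes 1 rose and 4 fell. Bnip3, a mitophagy receptor, had 25.4 and 26.7 in the GSK3β line with 3MB-PP1, against 43.5 and 37.6 untreated (log2 -0.62, limma adjusted p = 4.05e-07), a larger change than that of any of the 37 members. Optn, the autophagy receptor optineurin, had 9.64 and 9.82 with 3MB-PP1, against 12.7 and 12.5 untreated (log2 -0.34), and Calcoco1, a receptor for the endoplasmic reticulum, fell by 0.16 on the log2 scale. Tmem41b, a lipid scramblase needed for autophagosomes, had a log2 change of 0.14. In the GSK3α line Bnip3 had 51.2 and 49.4 with 3MB-PP1, against 60.0 and 57.6 untreated, and averaged over both lines it was lower (log2 -0.42, limma adjusted p = 0.0130), as Gnptab was higher (log2 0.17, limma adjusted p = 0.0271).

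The response differed between the lines for 6 of the 152, with 1 larger (0.658%) and 5 smaller (3.29%) in the GSK3β line. Over all tested genes 3.62% were larger and 2.9% smaller. The 6 were Hyal2 (difference of log2 changes 0.33), Ddit4 (-0.27), Cd68 (-0.35), Laptm4a (-0.16), Optn (-0.45) and Bnip3 (-0.39). With libraries scaled by the median of ratios 2 were larger and 4 smaller. Between the untreated lines 33 were higher (21.7%) and 53 lower (34.9%) in the GSK3β line, beside 22.3% and 25.9% of all tested genes. With equal totals 39 were higher and 32 lower. The furthest apart were Gpnmb, a known TFE target (log2 0.82), Tmem192 and Tpcn1 of the lysosomal membrane (both 0.55), and on the lower side Atp6v0a4, a proton pump subunit (-0.72), Naglu, which degrades heparan sulphate (-0.69), and Cd68 (-0.67). In the MiT/TFE and mTORC1 list Mios and Sesn3 were higher (log2 0.44 and 0.31) and Nprl2 lower (-0.34), all 3 upstream of mTORC1 in amino acid sensing. Of the hydrolases, Lgmn, the protease legumain, and Aga, which cleaves glycoasparagine, were higher (log2 0.43 and 0.39), and Arsa, arylsulfatase A, was lower (-0.48). In the autophagy list Ulk2, the paralog of Ulk1, and Atg4a, a protease of LC3-like proteins, were higher (log2 0.48 and 0.38), while Bnip3 and Atg9b were lower (-0.53 and -0.49). None of these genes had overlapping libraries.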

How the data were processed

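RNA of 8 libraries was sequenced from Illumina TruSeq preparations. The authors used TopHat2 and Partek with genome build mm10, per the submitters' processing notes. Versions, annotation and strand setting are not given in the sources used here. The deposited table holds signal values, which are scaled gene counts with an upper quartile that was equal in all libraries to within 0.0548%, as the values themselves show. Of 48321 genes listed, 17488 had values, always in all libraries, and the rest had none. Depth per library was estimated as the sum of values over the smallest value. At this depth members ranged from 129 estimated reads (Ctsc) to 11979 (Psap).

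Genes with a mean of at least 1 were tested (13959 kept, 3529 left out) on log2(value + 1), which understates changes of low genes, with limma-trend (limma 3.58.1 in R 4.3.3). The model had 1 mean for each of 4 groups and 4 residual degrees of freedom, or 5 for the average response with terms for line and inhibitor. Tests were two-sided, p-values were adjusted by Benjamini-Hochberg across the genes tested, and the threshold was an adjusted p of 0.05. Intervals are at 95%. The fit was tested on simulated data. No count test was used because the values are not raw counts.

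The members and lists were chosen with earlier results of these data known. All 37 members are named. Of each wider list, up to 4 genes past the threshold without overlap could be named by size of change in each comparison, and a few more of those that passed were named after their values were seen. Some genes of the wider lists are not reported here. Alternatives varied the added constant, filter, scaling, variance model, replicate block, libraries fitted and depth.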

Additional observations from a re-analysis of the deposited data

Results flagged for a closer look

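The response to 3MB-PP1 differed between the lines for 7 members, by a test of the difference itself in limma. The difference of log2 changes, GSK3β line minus GSK3α line, was 0.43 for Ulk1 (adjusted p = 3.29e-05), 0.30 for Gaa (adjusted p = 0.00301), 0.29 for Rragd (adjusted p = 0.0220), 0.28 for Hexa (adjusted p = 0.0244), 0.25 for Ctsl (adjusted p = 0.00682), 0.24 for Ctsa (adjusted p = 0.0343) and 0.21 for Tfe3 (adjusted p = 0.0127). In all 7 both GSK3β libraries with 3MB-PP1 were above both untreated GSK3β libraries. Each paralog is represented by 1 line, so paralog and line cannot be told apart.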

How the results depend on the processing

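In the GSK3β line 17 members passed, and 6 without the mean-variance trend, while leaving out 1 library gave 8 to 18. The difference of the responses had 7 calls, 0 without the trend, and 2 to 7 with 1 library left out. The average over both lines had 0 calls, 1 in limma-voom on estimated reads, and 0 to 1 with 1 library left out. The comparison of the untreated lines had 18 to 22 calls, with 16 of the 22 called under every alternative tried, and the GSK3α line had 0 under each. Blocked by replicate, the GSK3β line, the GSK3α line, the difference, the untreated lines and the average had 16, 0, 7, 22 and 0 calls. In the pairing check, same-numbered libraries had deviations that correlated at -0.04 to 0.03 over the 6 pairs of groups, so no shared deviation was seen. This cannot show whether same-numbered samples were handled together, which the labels do not say. Thinning reads to equal depth, chosen after seeing the data, gave 17, 0, 6, 22 and 0, and in the difference Rragd and Hexa lost the call and Tfeb gained one. Of the changes of single members under all alternatives, 3228 stayed on their side of the threshold with the same sign, 97 lost the call, 24 gained one and 92 changed sign without a call on either side, and no called change turned its direction. Tfeb gained the call in the GSK3β line under 7 of 19 alternatives (adjusted p 0.00774 to 0.200). Scaling shifted the median of all genes by less than 0.05 in log2 units. The share of promoters with CACGTG was 31.2% before the start alone. The cause of these shifts was not tested.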
